A study of Mus musculus with 12 samples.

Results

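The mRNA levels of 8 genes of the urothelium, the epithelium that lines the urinary tract, were followed in mouse kidneys before and after the ureter was blocked, in wild type mice and in mice labelled as Sprr2f KO. The genes are the uroplakins Upk1a, Upk1b, Upk2, Upk3a and Upk3b together with Trp63, Grhl3 and Psca. They were chosen by name, as known urothelial genes, with earlier results of these data already known. Each had 1 row among the 55471 genes of the deposited table. All 8 passed the filter on low values that left 18093 genes for testing.

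Urothelium covers the renal pelvis, ureter and bladder, and in a kidney it is found only where urine collects. Its luminal umbrella cells carry rigid membrane plaques built from uroplakins: the tetraspanin Upk1a pairs with Upk2 and the tetraspanin Upk1b pairs with Upk3a. Beneath them lie intermediate and basal cells, the latter marked by the transcription factor Trp63, while the grainyhead-like factor Grhl3 is needed for umbrella cells to mature.

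The study asked which genes differ in expression in Sprr2f knockout kidneys after unilateral ureteral obstruction (UUO), in which the left ureter is clamped so that urine backs up into 1 kidney. Sprr2f belongs to the small proline-rich proteins, which are cross-linked into the envelope of epithelial cells. All mice are labelled C57/BL6, and the protocol gives an age of 8 to 12 weeks. The wild type groups were day 0 (n = 2) and day 5 of UUO (n = 3), and the Sprr2f KO groups were likewise day 0 (n = 4) and day 5 (n = 3). The labels describe neither the knockout allele nor whether the day 0 kidneys had any operation, and they place all 12 kidneys under the treatment UUO. Each kidney was cut in 2 parts and only 1 part gave RNA, so how much of the pelvis a library holds is not known. Nothing in the labels says how the samples of a group relate to each other, so p-values measure only the spread between these samples. Replicate numbers were assigned here in the order of the samples within each group and are not from the labels.

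Libraries held 16567256 to 19398882 reads, so that 1 read was worth 0.0515 to 0.0604 CPM (reads per 1000000 reads). At day 0 the wild type libraries held 0 and 2 reads of Sprr2f itself, and the knockout libraries 0 to 5. At day 5 wild type held 447 to 1138 of its reads, against 0, 39 and 76 in knockout replicates 1, 2 and 3, so the labelled knockout libraries were not all without it. Reads of this family of near-identical genes can be assigned to the wrong copy. The title of the series names female mice, yet 7 of the 12 libraries had Y-linked transcripts (112 to 170 CPM summed over 4 genes), and the other 5 had Xist with at most 0.979 CPM of Y-linked transcripts. Y-linked transcripts were present in wild type day 0 replicate 1, wild type day 5 replicate 3, all 4 knockout day 0 libraries and knockout day 5 replicate 2. Wild type day 5 replicate 3 stood apart for the genes described here: it was the highest of the 12 libraries for 8 of 8 genes, so the main results are also given without it.

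All 8 genes are protein-coding in GENCODE M21, and none of their 50-base stretches occurs in the transcripts of another gene, so their reads are not shared with a near-identical copy. In GRCm38, Upk1a lies on chr7:30603092-30612847 (minus strand, 8 exons), Upk1b on chr16:38773184-38800328 (minus strand, 8 exons) and Upk2 on chr9:44452715-44454976 (minus strand, 5 exons). Upk3a lies on chr15:85017141-85022547 (plus strand, 6 exons) and Upk3b on chr5:136038496-136046487 (plus strand, 6 exons). Trp63 spans chr16:25683763-25892102 (plus strand, 16 exons), with the small genes Gm24928 and Gm27005 inside its introns. Grhl3 lies on chr4:135541888-135573630 (minus strand, 16 exons) and Psca on chr15:74714839-74717069 (plus strand, 3 exons).

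Because the 8 genes moved together, the promoters that RefSeq gives for 4 of them (GRCm38.p6) were searched over the 250 bases before the start that RefSeq gives, 5′ to 3′ on the gene's strand. For Upk1a that start lies inside the GENCODE gene, so the last 113 bases of its window fall within the gene and only the first 137 are shown. The regions shown are chr7:30612848-30612984 for Upk1a, chr15:85016891-85017140 for Upk3a, chr5:136038246-136038495 for Upk3b and chr4:135573633-135573882 for Grhl3. Capitals mark matches, on either strand, to 6 motifs: the grainyhead motif AACCGGTT, its form with 1 open base AACCNGTT (which contains the first), the GATA motif AGATAA, the TATA box TATAAA, the Kruppel-like motif CCACCC and the AP-1 motif TGANTCA.
Upk1a: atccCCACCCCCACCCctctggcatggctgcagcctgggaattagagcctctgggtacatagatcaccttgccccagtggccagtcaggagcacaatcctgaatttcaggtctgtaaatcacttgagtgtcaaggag
Upk3a: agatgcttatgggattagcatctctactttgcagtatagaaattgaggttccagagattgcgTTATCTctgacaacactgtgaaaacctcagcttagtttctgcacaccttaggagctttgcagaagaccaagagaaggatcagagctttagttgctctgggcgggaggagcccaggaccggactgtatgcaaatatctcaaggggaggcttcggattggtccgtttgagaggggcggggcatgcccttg
Upk3b: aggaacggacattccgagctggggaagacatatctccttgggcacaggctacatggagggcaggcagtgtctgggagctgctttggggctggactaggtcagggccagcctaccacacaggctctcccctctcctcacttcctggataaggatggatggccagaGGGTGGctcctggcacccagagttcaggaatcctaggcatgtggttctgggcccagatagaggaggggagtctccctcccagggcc
Grhl3: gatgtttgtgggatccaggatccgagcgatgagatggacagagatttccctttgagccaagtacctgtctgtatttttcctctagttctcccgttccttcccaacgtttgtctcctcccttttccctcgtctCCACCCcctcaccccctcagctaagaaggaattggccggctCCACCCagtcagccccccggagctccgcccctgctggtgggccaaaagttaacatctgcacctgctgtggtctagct
The capitals show CCACCC at 246 to 241 and 240 to 235 bases before the start of Upk1a, at 86 to 81 bases before that of Upk3b on the other strand, and at 118 to 113 and 77 to 72 bases before that of Grhl3. Upk3a instead has AGATAA, on the other strand, 188 to 183 bases before its start. These motifs are common: 28.1% of 32851 promoter windows of this length hold CCACCC and 9.99% hold AGATAA. The windows of these 4 genes held no match to the other motifs, which occur in 0.116% (AACCGGTT), 1.79% (AACCNGTT), 12.4% (TATAAA) and 6.75% (TGANTCA) of windows. A match is a string of letters and not a shown binding site.

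After 5 days of obstruction the uroplakins and their urothelial companions were higher in kidneys of both genotypes. Averaged over the genotypes, 8 of 8 genes rose, against 33.5% of all tested genes that were called higher, from 2.02-fold for Trp63 to 4.01-fold for Upk1b. Changes are log2 fold changes of scaled CPM plus 0.5, tested with limma across all genes and called at a Benjamini-Hochberg adjusted p under 0.05. The ends of the range depend on the method. On reads recovered from the CPM, edgeR gave averaged log2 fold changes from 1.19 for Upk3a to 2.80 for Grhl3. Scaled CPM is CPM divided by a TMM factor, which sets libraries of different RNA composition on 1 scale. In wild type 6 of 8 genes rose (24.5% of all tested genes did), and in knockout 6 of 8 rose (29.4%). The members' median log2 fold change was 1.73 in wild type and 1.37 in knockout, beside 0.04 and 0.07 over all tested genes. Since these are whole-tissue libraries, more urothelial cells and more RNA per urothelial cell cannot be told apart.

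**Figure D1:**
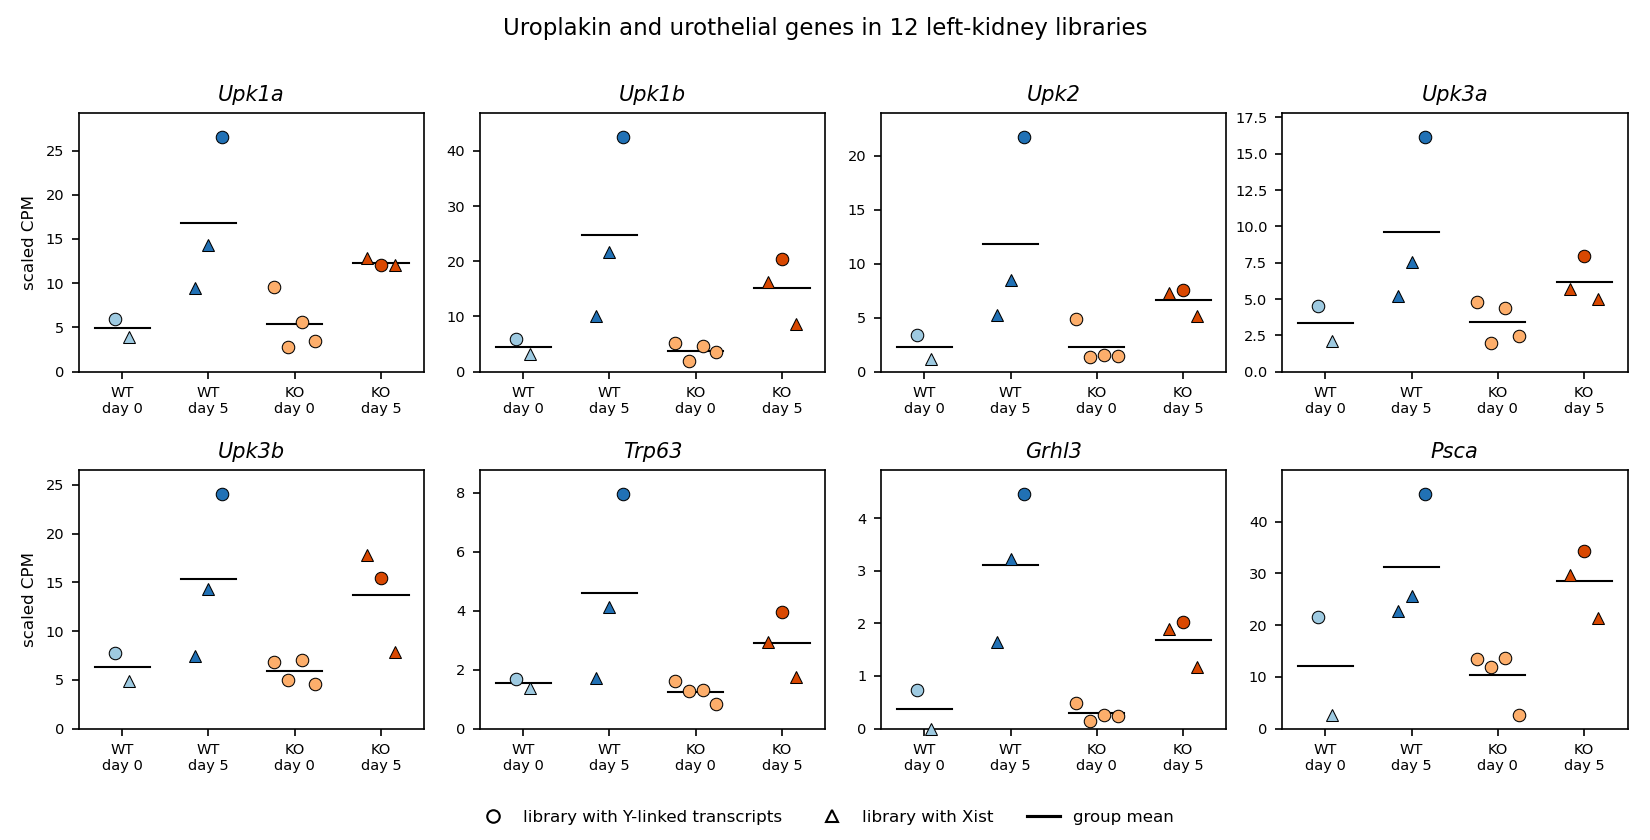
Scaled CPM (vertical axes) of the 8 genes in each of the 12 libraries, by genotype (WT, wild type; KO, Sprr2f knockout) and day of obstruction; circles are libraries with Y-linked transcripts, triangles libraries with Xist, and bars group means. Day 5 libraries lie above day 0 libraries of the same genotype except for Upk3b in wild type, and the highest circle in every panel is wild type day 5 replicate 3.

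Upk1b, the tetraspanin partner of Upk3a, rose in both genotypes. In wild type it was at 5.93 and 3.14 scaled CPM at day 0 and at 10.02, 21.8 and 42.5 at day 5. In knockout it was at 5.19, 1.90, 4.60 and 3.51 at day 0 and at 16.3, 20.5 and 8.64 at day 5. All 6 day 5 libraries were above all 6 day 0 libraries. The log2 fold change was 2.16 ± 0.54 (SE; limma adjusted p = 0.00509) in wild type and 1.85 ± 0.45 (adjusted p = 0.00368) in knockout. The wild type value was 1.66 without day 5 replicate 3, and it lost its call without day 0 replicate 2 (1.75, adjusted p = 0.0605).

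Upk3a, the partner of Upk1b, had smaller fold changes. Wild type libraries held 4.54 and 2.12 scaled CPM at day 0 and 5.20, 7.56 and 16.2 at day 5. Knockout libraries held 4.82, 1.97, 4.41 and 2.44 at day 0 and 5.69, 7.93 and 4.97 at day 5. The days did not overlap, although the gap was narrow: the lowest day 5 library was at 4.97 and the highest day 0 library at 4.82, both knockout. The log2 fold change of Upk3a was 1.33 ± 0.45 in wild type (limma adjusted p = 0.0280), which passed the test, and 0.83 ± 0.38 in knockout (adjusted p = 0.0822), which did not. The wild type call was lost without day 5 replicate 3 (0.90, adjusted p = 0.0993) and without day 0 replicate 2 (0.86, adjusted p = 0.251), and with limma-voom (adjusted p = 0.0503) or no filter (0.0660). In knockout Upk3a was called at nearly the same value (0.83) without wild type day 5 replicate 3 (adjusted p = 0.0425).

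Upk1a, the other tetraspanin, was at 5.99 and 3.93 scaled CPM in wild type at day 0 and at 9.50, 14.4 and 26.6 at day 5. Knockout libraries were at 9.58, 2.73, 5.64 and 3.45 at day 0 and close together at 12.8, 12.0 and 12.1 at day 5. With the genotypes joined the days overlapped, because knockout day 0 replicate 1 (9.58) was just above wild type day 5 replicate 1 (9.50). The log2 fold change of Upk1a was 1.57 ± 0.45 in wild type (limma adjusted p = 0.0115) and 1.27 ± 0.37 in knockout (adjusted p = 0.0118). In wild type it was 1.19 without day 5 replicate 3, still called, and 1.29 without day 0 replicate 2, no longer called (adjusted p = 0.0987).

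Upk2, the small partner of Upk1a, was at 3.39 and 1.21 scaled CPM in wild type at day 0 and at 5.29, 8.46 and 21.8 at day 5. In knockout it was at 4.88, 1.37, 1.56 and 1.49 at day 0 and at 7.27, 7.59 and 5.20 at day 5. Every day 5 library exceeded every day 0 library, and knockout replicate 1 stood well above the other 3 knockout libraries at day 0. The log2 fold change of Upk2 was 2.03 ± 0.56 in wild type (limma adjusted p = 0.00971) and 1.49 ± 0.47 in knockout (adjusted p = 0.0169). Without wild type day 5 replicate 3 the wild type value was 1.48 and still called, and without day 0 replicate 2 it was 1.43 and not called (adjusted p = 0.122). The knockout call was lost without day 0 replicate 2 (1.32, adjusted p = 0.0525) or day 5 replicate 1 (1.42, adjusted p = 0.0521).

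Upk3b, a relative of Upk3a that is also made by the mesothelium covering the kidney, gave values of 7.75 and 4.83 scaled CPM in wild type at day 0 and of 7.42, 14.4 and 24.1 at day 5. In knockout the values were 6.86, 4.94, 7.06 and 4.58 at day 0 and 17.8, 15.5 and 7.90 at day 5. Among the 8 genes its wild type days alone overlapped, with day 5 replicate 1 (7.42) below day 0 replicate 1 (7.75). Upk3b had log2 fold changes of 1.10 ± 0.43 in wild type (limma adjusted p = 0.0490) and 1.11 ± 0.36 in knockout (adjusted p = 0.0188). The wild type call sat at the threshold: the value was 0.71 without day 5 replicate 3 (adjusted p = 0.170) and 0.79 without day 0 replicate 2 (adjusted p = 0.283), and the call was also lost with limma-voom (adjusted p = 0.105), with no filter (0.102) and with RLE factors (0.0551). The knockout call was lost without day 5 replicate 1 (0.89, adjusted p = 0.0865) and without 3 other knockout libraries. The 8 other mesothelial markers did not share 1 direction: averaged over genotypes, Msln, a mesothelial surface protein, rose (log2 fold change 2.26), Gpm6a, a neuronal-type membrane glycoprotein, fell by 1.24, and the remaining 6 were not called. Their summed level, most of it Gpm6a, was 155 to 196 scaled CPM at day 0 and 85.0 to 133 at day 5. With Gpm6a left out after its values were seen, the other 7 summed to 23.5 to 39.6 at day 0 and 40.1 to 60.4 at day 5. Most of this sum was Cldn15 and Wt1, neither of which was called. Gpm6a alone had an averaged log2 fold change below 0, so leaving it out fixed that all 7 others were above 0. The part of mesothelium in the Upk3b result was not tested.

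Grhl3, the transcription factor of umbrella cell maturation, rose in both genotypes from a very low start. It had 12 and 0 reads in wild type at day 0, 35, 64 and 102 at day 5, 8, 2, 4 and 4 in knockout at day 0, and 43, 41 and 25 at day 5. The 0 in wild type day 0 replicate 2 allows up to 0.163 CPM (3 reads). All 6 day 5 libraries were above all 6 day 0 libraries, at 1.16 to 4.47 against 0 to 0.726 scaled CPM. The log2 fold change of Grhl3 was 2.13 ± 0.40 in wild type (limma adjusted p = 0.000788) and 1.47 ± 0.34 in knockout (adjusted p = 0.00244), and the added 0.5 CPM holds such low genes down. In wild type it was 1.85 without day 5 replicate 3 and 1.48 without day 0 replicate 2, called in both. Summed over libraries, day 5 had 201 reads against 12 in wild type, a ratio per library size of 11.6 (exact 95% interval 6.51 to 22.9), and 109 against 18 in knockout, a ratio of 7.89 (4.77 to 13.8). These intervals cover counting error only.

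Trp63, the p53 relative of basal cells, was at 1.69 and 1.39 scaled CPM in wild type at day 0 and at 1.70, 4.13 and 7.97 at day 5. In knockout it was at 1.61, 1.29, 1.30 and 0.833 at day 0 and at 2.95, 3.94 and 1.76 at day 5. The days did not overlap, but wild type day 5 replicate 1 (1.70) was barely above day 0 replicate 1 (1.69). Within a genotype Trp63 missed the threshold, with log2 fold changes of 1.12 ± 0.45 in wild type (limma adjusted p = 0.0566) and 0.91 ± 0.37 in knockout (adjusted p = 0.0552), and averaged over genotypes it passed at 1.02 ± 0.29 (adjusted p = 0.00858). In wild type it was 0.65 without day 5 replicate 3 (adjusted p = 0.196) and 1.62 without day 5 replicate 1 (adjusted p = 0.00345). On the recovered reads edgeR called Trp63 in wild type (1.58, adjusted p = 0.0339) and in knockout (1.20, adjusted p = 0.0436).

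Psca, a lipid-anchored Ly6-family protein of the urothelial surface, was uneven at day 0. Wild type libraries held 21.6 and 2.54 scaled CPM at day 0 and 22.6, 25.7 and 45.4 at day 5. Knockout libraries held 13.5, 11.8, 13.6 and 2.68 at day 0 and 29.8, 34.2 and 21.4 at day 5. Wild type day 0 replicate 2 and knockout day 0 replicate 4 were thus low, and wild type day 0 replicate 1 was as high as the lowest day 5 libraries. The log2 fold change of Psca was 1.60 ± 0.62 in knockout (limma adjusted p = 0.0444), which passed, and 1.89 ± 0.74 in wild type (adjusted p = 0.0532), which did not. The wild type value hung on which day 0 library was used: it was 0.45 without replicate 2 (adjusted p = 0.653) and 3.32 without replicate 1 (adjusted p = 0.00248), and it was 1.59 without day 5 replicate 3 (adjusted p = 0.140). The knockout call was lost without day 0 replicate 4 (1.05, adjusted p = 0.127), which moved the value most, and without any 1 of several other libraries or with DESeq2 (1.41, adjusted p = 0.0858).

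Counted over the genes, all day 5 libraries exceeded all day 0 libraries for 7 of 8 in wild type (34.4% of all tested genes did so) and for 8 of 8 in knockout (29.5%). With the genotypes joined, all 6 day 5 libraries exceeded all 6 day 0 libraries for 5 of 8 genes (22.1%), the exceptions being Upk1a, Upk3b and Psca. The calls within a genotype rested on few libraries. In wild type 1 gene, Grhl3, was called without day 0 replicate 2 and 4 without day 5 replicate 3, while in knockout 3 were called without day 0 replicate 2 or without day 5 replicate 1. All 8 log2 fold changes were above 0 in each of these fits, and averaged over genotypes all 8 genes were called without wild type day 5 replicate 3 and 7 without wild type day 0 replicate 2 (Psca adjusted p = 0.0535). With CPM as deposited and no TMM factor, the median of all genes moved up by 0.37 in wild type and 0.38 in knockout. The members' median was then 2.13 in wild type and 1.70 in knockout, beside 0.40 and 0.45 over all tested genes. In that setting 81.1% of called genes in wild type and 82.3% in knockout were higher at day 5.

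**Figure D2:**
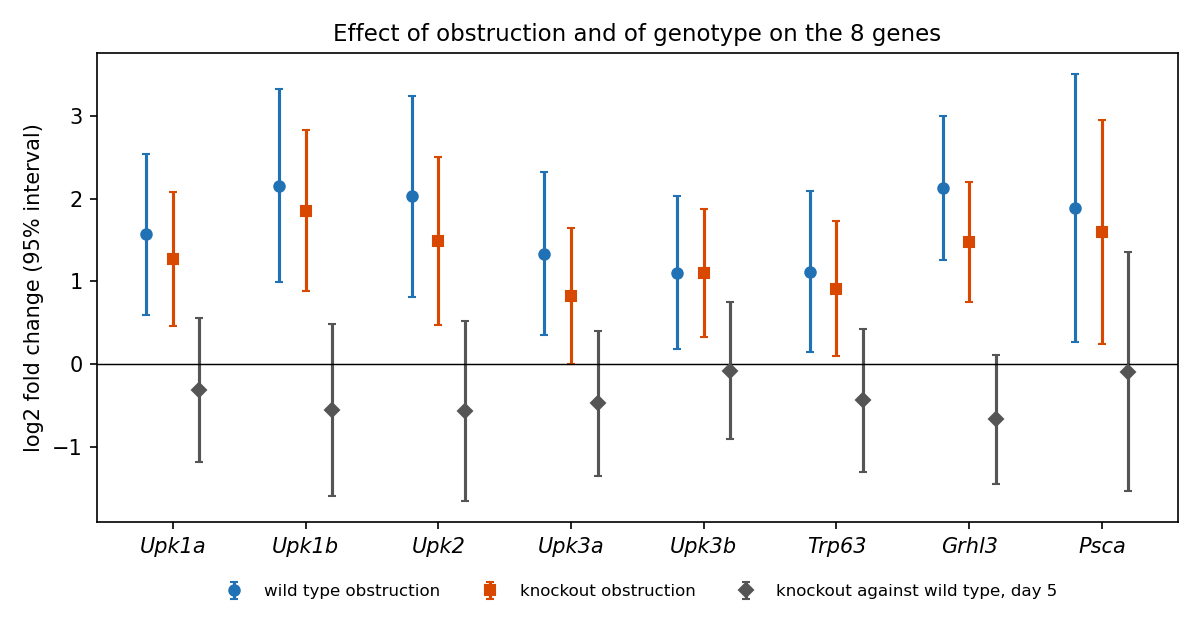
Log2 fold change (vertical axis) with its 95% interval from limma for each of the 8 genes: day 5 against day 0 in wild type (circles), day 5 against day 0 in knockout (squares) and knockout against wild type at day 5 (diamonds). The obstruction effects lie between 0.83 and 2.16, and the genotype differences at day 5, from -0.66 to -0.08, all have intervals that include 0.

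No difference between knockout and wild type passed the test in these genes at either day. At day 0 the log2 difference, knockout minus wild type, ran from -0.24 for Upk1b to 0.19 for Psca, and 0 of 8 genes were called by limma, with 0 of 8 also at an unadjusted p under 0.05 (15% of all tested genes). All 4 knockout libraries at day 0 had Y-linked transcripts, against 1 of 2 in wild type. With that pattern as a term all 8 day 0 differences were below 0, at -0.76 to -0.29, and among libraries with Y-linked transcripts (4 against 1) they were -1.24 to -0.30, in both cases with 0 of 8 called. In the main fit of knockout against wild type at day 0, 0.0166% of all tested genes were called lower and 0% higher. With the pattern as a term 19 genes were called. At day 5 all 8 differences were below 0, from -0.66 ± 0.36 for Grhl3 and -0.56 ± 0.50 for Upk2 to -0.08 ± 0.38 for Upk3b, and again 0 of 8 were called, adjusted or not (limma adjusted p of 0.945 to 0.999). The day 5 comparison called 0% of genes in either direction with limma and 0 with edgeR, while 5.67% had an unadjusted p under 0.05 and DESeq2 called 51. Sprr2f itself, at a log2 difference of -4.14 ± 0.59, was not called by limma either (adjusted p = 0.152).

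The intervals of the genotype difference at day 5 were wide, from -1.44 to 0.11 for Grhl3, from -1.59 to 0.49 for Upk1b and from -0.91 to 0.75 for Upk3b, so both a marked deficit and no deficit lie inside them. Without wild type day 5 replicate 3 the 8 differences ran from -0.39 to 0.31, with 4 above 0. In the test of the difference of the obstruction effect between genotypes, limma also called 0 of 8 genes (background 0.00553% higher and 0% lower), with values from -0.65 ± 0.52 for Grhl3 to 0.00 ± 0.56 for Upk3b.

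Levels of these genes were also set beside the library pattern of sex-chromosome transcripts. Where a group held both patterns, the library with Y-linked transcripts was the highest for 8 of 8 genes in wild type at day 0, for 8 of 8 in wild type at day 5 and for 6 of 8 in knockout at day 5. The share of all genes ranked this way was not counted. With so few libraries in a group many genes can rank this way by chance, so no conclusion is drawn from these ranks. Because the 8 genes moved together between libraries, these ranks are not 8 separate observations. In a fit across all genes with this pattern as a term, all 8 genes were higher in libraries with Y-linked transcripts, by log2 differences of 0.55 to 1.27, and 1 of 8 passed: Upk3a at 0.93 ± 0.26 (limma adjusted p = 0.0433). Over all tested genes 3.53% were called higher and 4.41% lower in that comparison. Only 3 groups held both patterns and each had 1 library with Y-linked transcripts, so the pattern and the individual kidney cannot be told apart.

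Obstruction was also compared within each pattern. Among libraries with Y-linked transcripts the log2 fold changes ran from 1.05 to 2.73 in wild type (1 library against 1). In knockout they ran from 1.18 to 2.36 (1 against 4). Among libraries with Xist they ran from 0.79 to 3.06 in wild type (2 against 1). These fits left 1 library on a side, so only the size of the change is given here. It says little of the spread between kidneys. Knockout day 0 holds no library with Xist, so that value could not be had. With the pattern as a term in the fit of all libraries, 8 of 8 genes were called in wild type and 8 of 8 in knockout. The share of all genes called in that fit is not given here. Knockout against wild type at day 5 gave -1.45 to -0.39 among libraries with Y-linked transcripts (1 against 1). Among those with Xist it gave -0.53 to 0.18, and none of the 8 genes was called.

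The reads of 2 uroplakins were also set against each other within a library, which removes scaling between libraries. The ratio of Upk3a to its partner Upk1b was lower in every obstructed kidney. At day 0 it was 0.765 and 0.673 in wild type and 0.929, 1.04, 0.958 and 0.695 in knockout. At day 5 it was 0.519, 0.347 and 0.380 in wild type and 0.350, 0.388 and 0.575 in knockout. The ranges did not overlap, at 0.673 to 1.04 against 0.347 to 0.575, and the log2 ratio differed by -0.94, beside an SD of 0.29 within groups. With any 1 library left out the difference stayed between -1.05 and -0.87. The ranges were also apart among libraries with Y-linked transcripts (0.695 to 1.04 at day 0, 0.380 and 0.388 at day 5) and among those with Xist (0.673 at day 0, 0.347 to 0.575 at day 5). The ratios were picked after the levels had been seen, and this one sets the uroplakin with the largest averaged fold change against the one with the smallest, so no test is given.

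Of the 10 possible pairs of uroplakins, 2 had ratios whose days did not overlap, and both held Upk1b. The second was Upk1b to Upk3b, at 0.385 to 0.766 at day 0 and 0.913 to 1.77 at day 5. Reads of Upk1b against the other tetraspanin, Upk1a, gave ratios of 0.542 to 1.02 at day 0 and 0.715 to 1.70 at day 5, overlapping ranges, with a log2 difference of 0.62 (0.48 to 0.80 with 1 library left out) beside an SD of 0.43 within groups. Upk2 against its partner Upk1a was at 0.276 to 0.566 at day 0 and 0.431 to 0.820 at day 5, also overlapping, with a log2 difference of 0.50 (0.28 to 0.72) beside an SD of 0.39.

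**Figure D3:**
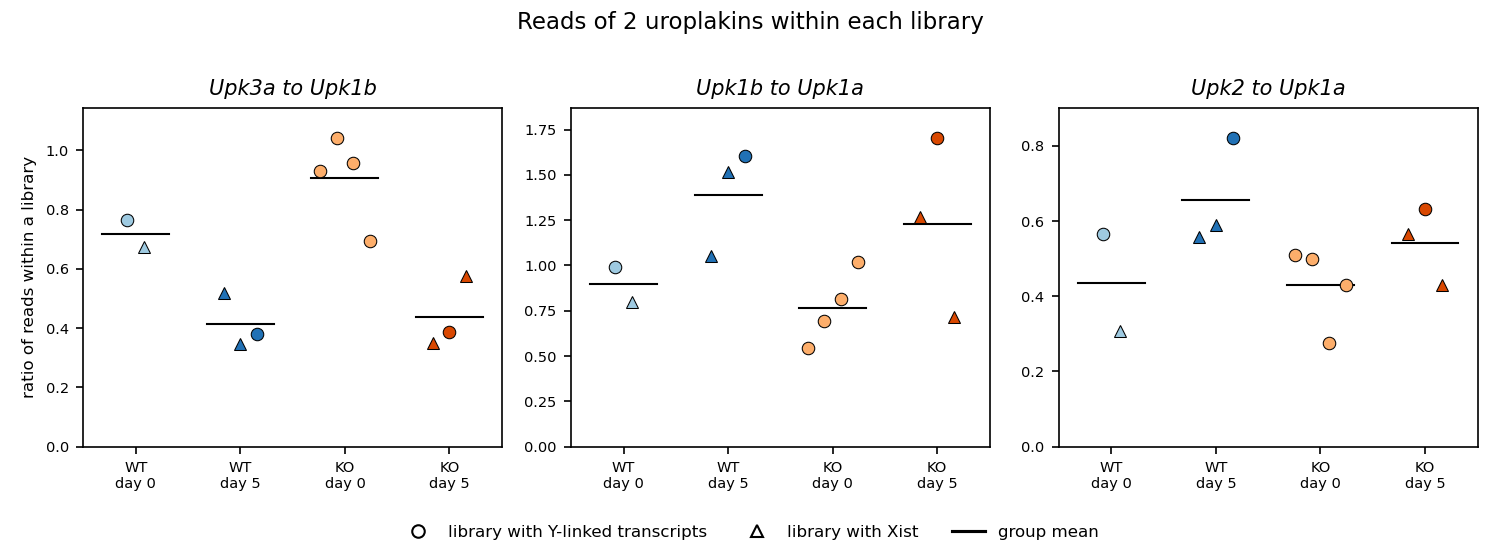
Ratio of reads of 2 uroplakins within each library (vertical axes), by genotype and day, with circles for libraries with Y-linked transcripts, triangles for libraries with Xist and bars for group means. The Upk3a to Upk1b ratio is at 0.673 or above in all day 0 libraries and at 0.575 or below in all day 5 libraries, and the other ratios overlap between days.

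Levels of different genes were compared per kilobase of exon. At day 0 Psca led with 14.0 ± 15.7 (SD, n = 2) scaled CPM per kilobase in wild type and 12.1 ± 6.06 (n = 4) in knockout. The uroplakins followed within a narrow band, from Upk1a at 3.49 ± 1.03 and Upk3a at 3.04 ± 1.57 over Upk1b at 2.17 ± 0.944 and Upk2 at 2.12 ± 1.42 to Upk3b at 1.78 ± 0.583 in wild type, and neighbours in this order differed by less than their SD. Trp63 (0.184 ± 0.0257) and Grhl3 (0.130 ± 0.184) were lowest.

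At day 5 Psca again led, with 36.3 ± 14.4 (n = 3) scaled CPM per kilobase in wild type and 33.1 ± 7.60 (n = 3) in knockout. Upk1b had moved up beside Upk1a, at 11.9 ± 7.88 and 11.8 ± 6.18 in wild type and at 7.24 ± 2.87 and 8.66 ± 0.317 in knockout. Upk2 (10.9 ± 8.08 in wild type, 6.18 ± 1.20 in knockout) and Upk3a (8.82 ± 5.28 and 5.67 ± 1.41) came next, within the spread of their neighbours. Upk3b was at 4.33 ± 2.37 and 3.89 ± 1.47. Grhl3 (1.12 ± 0.506 and 0.607 ± 0.166) was now above Trp63 (0.549 ± 0.377 and 0.344 ± 0.130), by more than either SD in both genotypes. Their opposite order at day 0 lay within the SD of Grhl3. The order at day 5 depends on exon length, 8391 bases merged from 8 transcripts for Trp63 and 2789 bases from 1 for Grhl3. Without division by length Trp63 was the higher at day 5. It was at 4.60 against 3.12 scaled CPM in wild type and 2.89 against 1.69 in knockout.

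The uroplakins rose and fell together from kidney to kidney. Over the 12 libraries the 10 pairs of uroplakins had Pearson r of 0.894 to 0.968 in log2 level, and 0.723 to 0.927 after group means were removed. Psca was looser, at 0.752 to 0.838 and 0.483 to 0.701 with the other 7 genes. Points of a pair share a library and its scaling, so these values are a description. The 5 uroplakins summed to 27.6 and 15.2 scaled CPM in wild type and 31.3, 12.9, 23.3 and 15.5 in knockout at day 0. At day 5 the sums were 37.4, 66.5 and 131 in wild type and 59.9, 63.5 and 38.8 in knockout. Wild type replicate 3 lay far above the knockout range, replicate 2 (66.5) just above it and replicate 1 (37.4) just below it.

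Among 14260 genes ranked, with the 8 urothelial genes themselves left out, those whose log2 level over the 12 libraries was most like the mean of Upk1a, Upk1b, Upk2 and Upk3a were Ly6d (r = 0.967), Trim29 (0.964), Rnf39 (0.963), Nipal4 (0.962), the basal keratin Krt5 (0.959), the desmosome protein Pkp1 (0.957), the smooth muscle protein Cnn1 (0.953) and Fer1l4 (0.950). With group means removed the order was Klhl32 (0.943), Syt8 (0.932), the fibrillar collagen Col5a1 (0.908), the nuclear receptor Esrrg (0.907), Pkp1 (0.901), Rnf39 (0.899), the gasdermin Gsdmc2 (0.899) and Rflnb (0.895). Pkp1 and Rnf39 stand in both lists.

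Other genes of the urothelium moved in both directions, given here by layer and role with obstruction averaged over genotypes (33.5% of all tested genes were called higher and 29.4% lower). Of 15 tested genes of basal and intermediate cells 12 rose, 2 fell and 1 was not called, with a median log2 fold change of 1.81 (0.05 over all tested genes). Those with the smallest adjusted p were the hemidesmosome collagen Col17a1 (3.92 ± 0.20), the hyaluronan receptor Cd44 (4.81 ± 0.29), the 14-3-3 protein Sfn (2.81 ± 0.21) and the laminin receptor subunit Itgb4 (1.47 ± 0.12). The basal keratins rose as well, Krt5 by 3.37 ± 0.50, Krt14 by 3.00 ± 0.42 and Krt15 by 2.61 ± 0.32, beside 1.02 ± 0.29 for Trp63. Shh, a signal made by basal urothelial cells, was at -0.01 ± 0.25 and was not called, and the desmosomal Dsc3 was too low to test.

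Of 14 genes of apical differentiation and plaque traffic 10 rose, 3 fell and 1 was not called, with a median of 0.99. The umbrella cell keratin Krt20 rose by 7.02 ± 0.35, the simple-epithelium keratins Krt18 by 2.49 ± 0.13 and Krt19 by 3.61 ± 0.22, and Sytl2, an effector of vesicle docking, by 2.44 ± 0.14. The sorting nexin Snx31, which binds uroplakin vesicles, fell by 0.97. Within the genotypes its log2 fold change was -0.02 in wild type (limma adjusted p = 0.968) and -1.92 in knockout (adjusted p = 0.000507), and the difference between genotypes was not called.

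Of 14 urothelial transcription factors 10 rose, 2 fell and 2 were not called, with a median log2 fold change of 0.65. The epithelial Ets factor Elf3 (2.03 ± 0.12), the Kruppel-like factor Klf5 (2.09 ± 0.16) and the luminal factor Gata3 (0.78 ± 0.08) rose, and the retinoid receptor Rxra fell by 0.70. Pparg, a driver of urothelial differentiation, was at 0.21 ± 0.20 and was not called. The grainyhead relatives Grhl1 (0.63 ± 0.19) and Grhl2 (0.52 ± 0.11) rose, beside 1.80 ± 0.26 for Grhl3.

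Of 12 surface and barrier genes 9 rose, 1 fell and 2 were not called, with a median of 0.99. The claudins Cldn4 (2.71 ± 0.13) and Cldn7 (1.46 ± 0.07) rose, and the water channel Aqp3 fell by 1.10. Among 18 tested relatives of the uroplakins and of Psca (tetraspanins, Upk3bl and Ly6 genes) 9 rose, 3 fell and 6 were not called, with a median of 0.26. The tetraspanins Cd9 (1.21 ± 0.08), Tspan8 (0.92 ± 0.07) and Tspan6 (1.30 ± 0.10) rose and Tspan1 fell by 1.13. Upk3bl, the near relative of Upk3b, rose by 1.16 ± 0.21 from at most 0.181 scaled CPM in the day 0 means, and Ly6d, a Ly6 protein of stratified epithelia, by 2.56 ± 0.47.

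Many of these genes are not private to urothelium. Krt20 also stands in the list of injured tubule genes, of which 7 of 7 rose, with a median log2 fold change of 5.12, among them the secreted proteins Clu (2.93 ± 0.09), Spp1 (3.96 ± 0.14) and Lcn2 (6.09 ± 0.21). Their summed level was 1018 to 1882 scaled CPM at day 0 and 14742 to 22196 at day 5, and their part in the levels of the 8 genes was not tested. Smooth muscle genes of the pelvic wall and ureter rose in 7 of 8 cases (median 1.08), among them the actins Acta2 (1.95 ± 0.15) and Actg2 (3.59 ± 0.39), the filament protein Des (1.06 ± 0.16) and Synpo2 (1.10 ± 0.17). Myh11, the smooth muscle myosin, was at 0.26 ± 0.16 (limma adjusted p = 0.160) and was not called. The smooth muscle sum was 172 to 214 scaled CPM at day 0 and 331 to 625 at day 5, and its highest library, wild type day 5 replicate 3, was also the highest for the 8 genes. Whether this list marks pelvic wall in these kidneys was not tested, nor was the part of pelvic wall in the result.

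Markers of other tissue gave few calls. Of 9 genes of the papilla and inner medulla 1 rose, 3 fell and 5 were not called (median -0.07), and their sum was 1255 to 1484 scaled CPM at day 0 and 1158 to 1674 at day 5. The urea transporter Slc14a2 fell by 0.49, Fxyd4 by 0.31 and the inositol transporter Slc5a3 by 0.57, and the aldose reductase Akr1b3 rose (limma adjusted p = 0.0116). Of 5 tested genes of fat 1, the carbonic anhydrase Car3, fell by 1.30 and 4 were not called. The fat sum was 20.7 scaled CPM in wild type day 0 replicate 1 and 98.5 in replicate 2, the library of the pair with the lower level of all 8 urothelial genes, and 75.6 to 107 in knockout at day 0, and 6.18 to 89.2 at day 5 over both genotypes. The part of fat in the results was not tested. Of cornified epidermis 2 of 6 genes could be tested, Krt10, which fell by 0.68, and Lor, which was not called, and Krt2 had no read in any library.

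**Figure D4:**
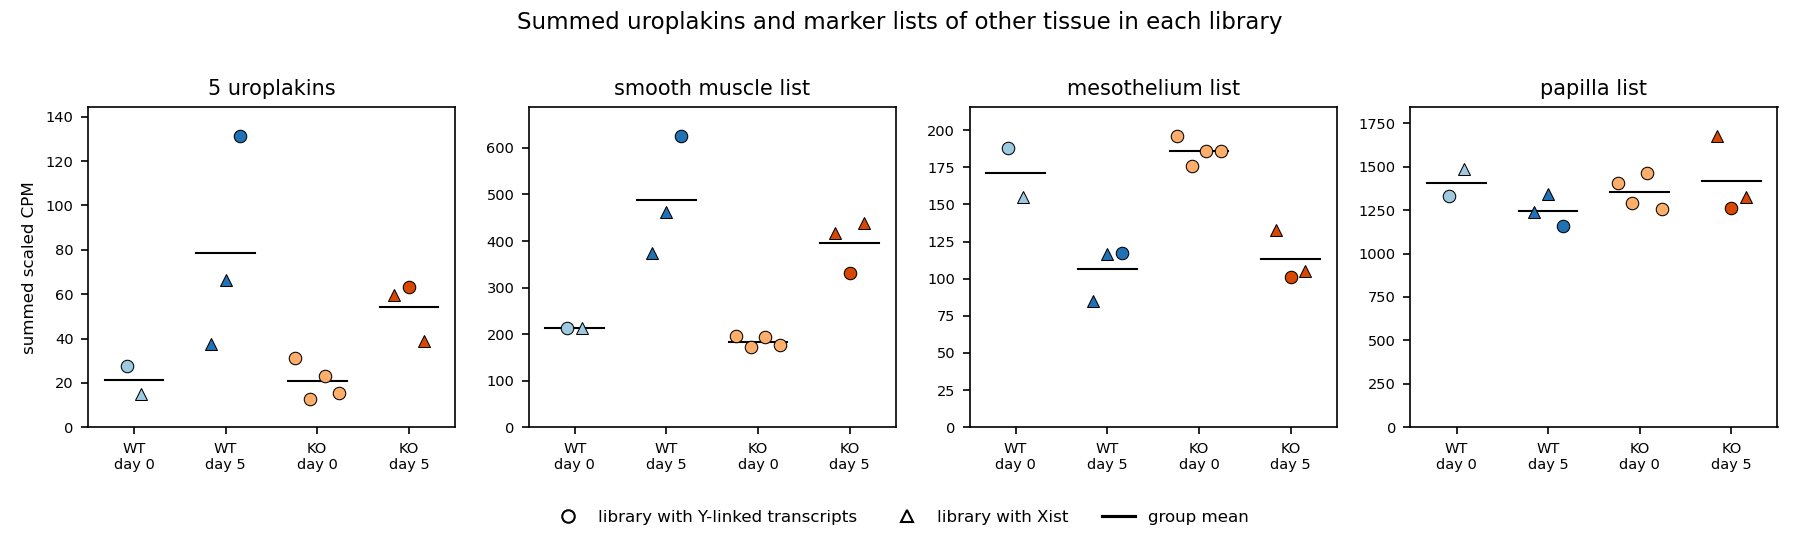
Summed scaled CPM (vertical axes) of the 5 uroplakins and of the smooth muscle, mesothelium and papilla lists in each library, by genotype and day, with circles for libraries with Y-linked transcripts, triangles for libraries with Xist and bars for group means. Wild type day 5 replicate 3 is the highest library for the uroplakins (131) and for smooth muscle (625). The mesothelium sum, most of it Gpm6a, is lower at day 5. With Gpm6a left out after its values were seen, that sum (not drawn) was 23.5 to 39.6 at day 0 and 40.1 to 60.4 at day 5. The papilla sums of the 2 days overlap.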

How the data were processed

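RNA from 12 left kidneys was sequenced with 50-base reads. The deposited table gives CPM per gene, made by the authors with STAR, SAMtools and HTSeq on GRCm38.p6, per the submitters' processing notes; versions and the strand setting are not given in the sources used here. Dividing each column by its smallest step gave whole reads for 100% of 665652 values (within 0.001). The 8 genes, the gene lists and the tests were chosen with earlier results of these data known. Low genes were removed with filterByExpr, set to a count of 10 and a total of 15. The log2 values of CPM divided by TMM factors (edgeR 4.0.16), plus 0.5, were fitted with limma 3.58.1 (trended empirical Bayes, R 4.3.3) on the 4 groups in 1 model and adjusted over 18093 genes. Genes named are the 8 members, up to 4 tested genes per list with the smallest adjusted p, defining markers near 0, and the 8 of closest pattern. A surface and barrier gene that this rule names is not reported here by itself. Beyond that rule, Krt5, Krt14, Krt15, Shh, Snx31, Pparg, Grhl1, Grhl2, Upk3bl, Ly6d, Myh11, Lor, Cldn15 and Wt1 were named after their values were seen. Alternatives were edgeR, DESeq2 1.42.0 and limma-voom on the recovered reads, other scalings, added values, filters and subsets, and each library left out. Figures used Python 3.11.15 and matplotlib 3.10.9.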

Additional observations from a re-analysis of the deposited data

Results flagged for a closer look

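In the knockout kidneys at day 0, Upk2 in replicate 1 was at 4.88 scaled CPM, far from the next library at 1.56, a gap of 0.946 of the group's whole range. In the same group Psca in replicate 4 was at 2.68 scaled CPM, with the next library at 11.8, a gap of 0.838 of the range. Both gaps exceed Dixon's 95% limit for 4 samples. The limit was applied to the 8 genes in the 1 group of 4 libraries, and chance alone flags about 1 group in 20. Replicate 1 was the highest knockout day 0 library for 6 of 8 genes.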

How the results depend on the processing

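Obstruction averaged over genotypes gave log2 fold changes above 0 in all 184 values of the 8 genes under 23 alternatives. It called 8 of 8 genes in each, except 7 among libraries with Y-linked transcripts (Psca adjusted p = 0.0809) and 7 without wild type day 0 replicate 2. Within a genotype all 200 values in wild type and all 192 in knockout were above 0. In wild type the number of the 8 genes called was 1 to 7 with 1 library left out (1 without day 0 replicate 2) and 4 to 8 otherwise. In knockout it was 3 to 8 with 1 library left out and 5 to 8 otherwise. None of the 8 genes was called for genotype or for the difference of effects under any alternative that gave a value, and their uncalled values changed sign 33, 9 and 29 times at day 0, at day 5 and for the difference. The cause of the shifts that follow was not tested. Genes called for knockout against wild type at day 0 numbered 3, and 370 with DESeq2, 6 with RLE factors, 15 with library size only, 8 with 0.1 CPM added, 9 with no filter, 6 with a CPM of 1 in 2 libraries, 10 with only the compared groups, 19 with the sex-chromosome pattern as a term and 1 to 638 with 1 library left out (638 without wild type day 0 replicate 1). At day 5 they numbered 0, and 51 with DESeq2, 2 with 1 CPM added, 3 with the pattern as a term and 0 to 23 with 1 library left out (23 without knockout day 5 replicate 2). For the difference of effects they numbered 1, and 47 with DESeq2, 0 with library size only, 0 with no filter, 3 with the pattern as a term, 0 among libraries with Y-linked transcripts and 0 to 107 with 1 library left out (107 without wild type day 0 replicate 1). With library size only, 81.1% of called genes in wild type and 82.3% in knockout were higher at day 5, against 52.1% and 53.7% with TMM. The read ratios, with 1 library left out at a time (added after seeing the data), gave log2 differences of -1.05 to -0.87 for Upk3a to Upk1b, 0.48 to 0.80 for Upk1b to Upk1a and 0.28 to 0.72 for Upk2 to Upk1a. No paired analysis was possible because the labels give the samples no replicate numbers. Libraries with Xist gave no value that needs knockout day 0, and fits on only the compared groups were not run for the difference and the average. With 2 to 4 libraries a group, and 0 to 12 reads of Grhl3 at day 0, differences between genotypes within these intervals were not detectable.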
